A study of Mus musculus with 12 samples.

Results

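The genes described here encode the estrogen-related receptor ERRα and the proteins that work with it on mitochondrial genes. They are the receptor gene Esrra, the coactivator genes Ppargc1a, Ppargc1b and Pprc1, the corepressor gene Nrip1, the deacetylase genes Sirt1 and Sirt3, and the regulator genes Tfam, Nrf1 and Gabpa. Members were taken by name: every non-control probe whose transcript accession belonged to one of these 10 genes was used, which gave 16 probes, and 10 of the 20887 genes named on the array. Ppargc1a and Gabpa had 2 probes each and Tfam and Nrf1 had 3 each.

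RNA was measured on 12 1-colour Agilent arrays in bone marrow-derived macrophages, cells grown from marrow progenitors in macrophage colony-stimulating factor for 5 to 7 days. The donors were male C57BL6 mice aged 6 to 8 weeks, either wild type at the Esrra locus (ERRα+/+) or lacking ERRα (ERRα-/-). Cells of each genotype received PBS, the solvent, or lipopolysaccharide (LPS), a bacterial cell wall component that activates macrophages through TLR4, at 100 ng/mL. Crossing genotype and treatment made 4 groups of 3 arrays each. The time in LPS, the deleted part of Esrra, and whether the replicates came from separate mice are not given in the sources used here, so p-values measure the spread between these samples, which may be technical. Replicate 1 of every group lay on slide 1, and replicates 2 and 3 lay on slide 2.

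ERRα is an orphan nuclear receptor that binds DNA without a known natural hormone and takes its activity from coactivators. PGC-1α (Ppargc1a), PGC-1β (Ppargc1b) and PRC (Pprc1) are related coactivators that bind ERRs and the nuclear respiratory factors, and through them raise genes of oxidative phosphorylation, fatty acid oxidation and mitochondrial DNA maintenance. RIP140 (Nrip1) opposes them on many of the same genes, SIRT1 deacetylates PGC-1α, and SIRT3 deacetylates enzymes inside mitochondria. NRF-1 (Nrf1) and GABPα (Gabpa) bind the promoters of nuclear genes for mitochondrial proteins, among them that of TFAM, which packages and transcribes mitochondrial DNA. In macrophages LPS shifts energy metabolism towards glycolysis, and ERRα has been described as a regulator of both mitochondrial genes and Toll-like receptor signalling.

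The promoters show which of these factors' elements lie beside the members' own start sites. RefSeq promoter windows of GRCm38.p6, the 250 bases before a transcript start, were held for 9 of the 10 genes (12 windows), and 7 motifs were searched on both strands. The ERR element TCAAGGTCA (in 0.387% of all 32851 windows) and its core AAGGTCA (4.08%, which also counts every full element), the palindromic NRF-1 element (3.74%), the NF-kB element (0.356%) and the cyclic AMP response element TGACGTCA (1.55%) had no match in the 12 windows. The E-box CACGTG, held by 6.02% of all windows, matched at -115 to -110 and at -43 to -38 from the start of Sirt1. The ETS element CCGGAAGT, of the type GABPα binds and held by 2.88% of all windows, matched once each before Sirt3 (-86 to -79, on the opposite strand) and Tfam (-47 to -40). A match is a description of these letters and not evidence of binding. The whole Sirt1 window, chr10:63339036-63339285, lies on the minus strand and outside any gene model of that table. It is printed because Sirt1, by replicate number, was lower with LPS throughout in ERRα+/+ cells and higher throughout in ERRα-/- cells. The Sirt3 stretch, chr7:140882377-140882406 on the minus strand, lies in a window that overlaps the neighbouring gene Psmd13, and the Tfam stretch, chr10:71238073-71238102 on the minus strand, lies within an annotated model of Tfam. All run 5′ to 3′ on the gene's strand, with the motif in capitals.
Sirt1: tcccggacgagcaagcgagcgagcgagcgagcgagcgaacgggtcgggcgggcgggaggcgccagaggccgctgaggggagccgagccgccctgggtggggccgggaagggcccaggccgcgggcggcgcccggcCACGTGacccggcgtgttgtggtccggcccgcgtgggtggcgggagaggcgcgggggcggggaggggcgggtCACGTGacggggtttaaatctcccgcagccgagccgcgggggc
Sirt3: agtgctcgctcACTTCCGGcaccgcgggcg
Tfam: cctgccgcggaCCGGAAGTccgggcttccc

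Levels are log2 processed signal relative to the array's 75th percentile, so that 0 is the 75th percentile of the 55681 probes. The share of probes well above background was 45.3% to 56.7% per array, no spot was saturated, and 13113 genes were tested with limma. Spots of the same probe varied by 3.79% to 4.65% (coefficient of variation) on 10 arrays but by 12.4% and 8.19% on replicates 2 and 3 of the ERRα+/+ PBS group. All 10 measured macrophage markers, among them Csf1r and Adgre1, were above background on all 12 arrays. Of the markers of other cells, 6 of 7 for neutrophils and 5 of 6 for stromal cells and fibroblasts were above background on every array, and 0 markers of any list were called between genotypes. In bulk RNA, fewer cells of a type and less RNA per cell cannot be told apart.

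**Figure D1:**
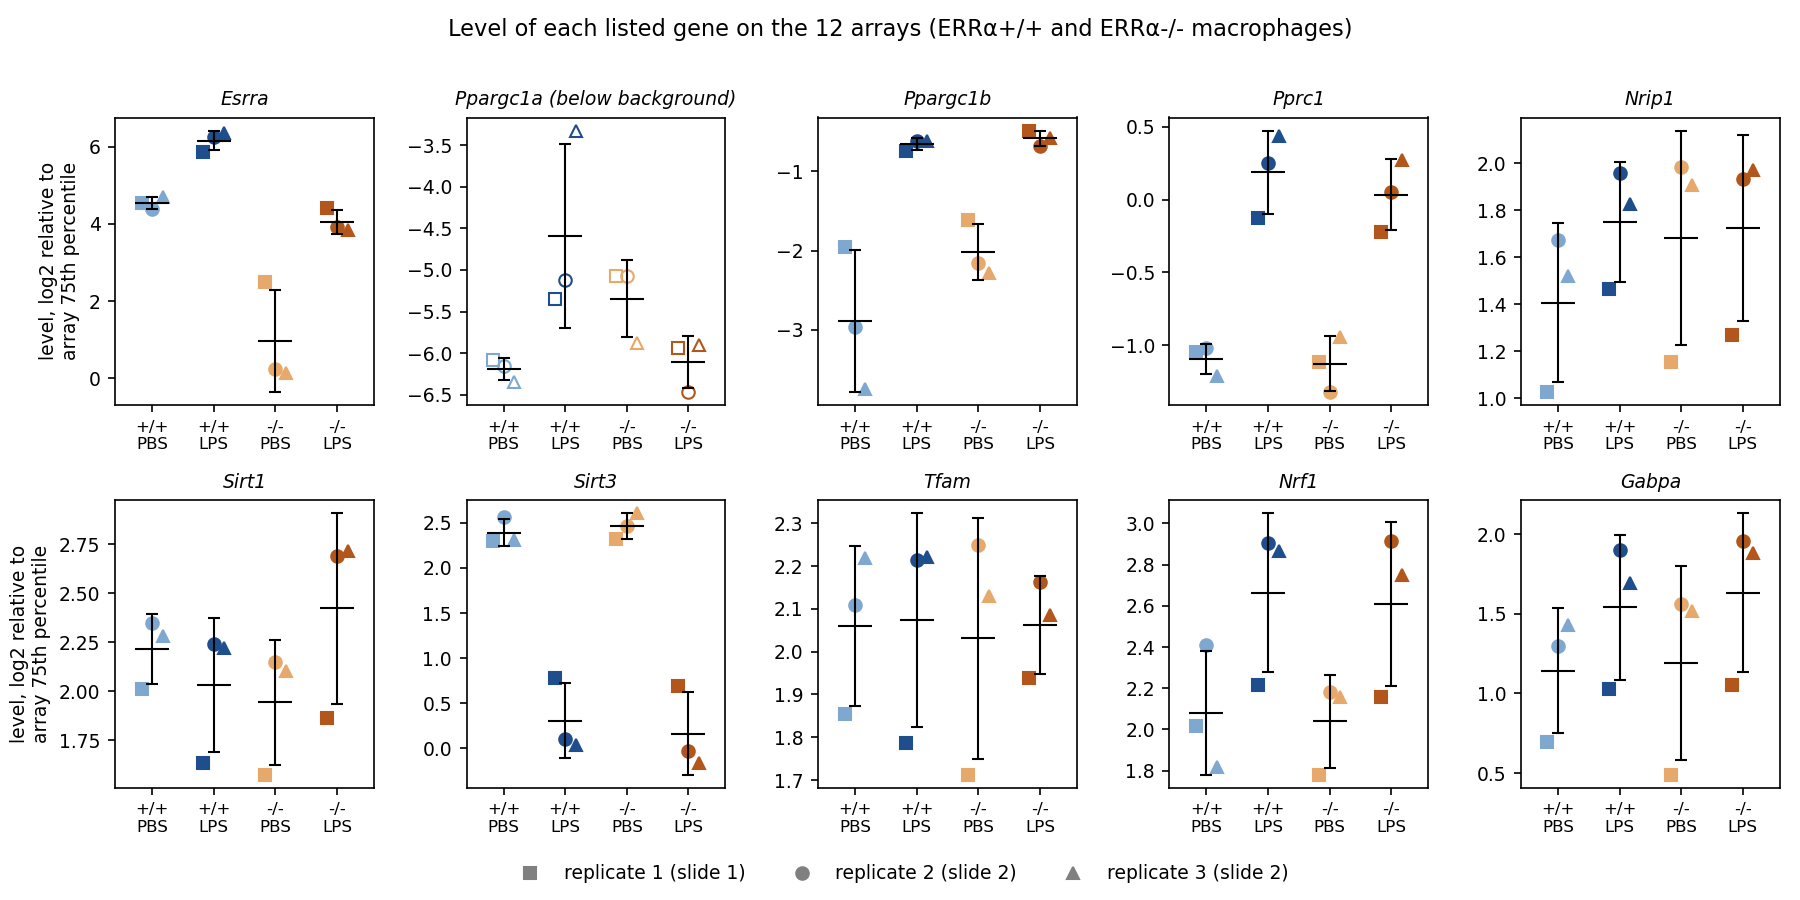
Level of each of the 10 genes on every array (log2 units from the 75th percentile of its array, a separate vertical scale per panel), by genotype (+/+ or -/-) and treatment; symbols give the replicate and its slide, bars the mean ± SD of 3 arrays, and open symbols of Ppargc1a (its brighter probe) mark signal not well above background. Esrra, Ppargc1b and Pprc1 stood higher and Sirt3 lower under LPS in both genotypes with no overlap, while Nrip1, Sirt1, Tfam and Gabpa stood lower on slide 1 in all 4 groups.

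Esrra, the gene targeted in these mice, was read by 1 probe that was above background on all 12 arrays. In ERRα+/+ cells it read 4.54, 4.39 and 4.68 with PBS and 5.87, 6.25 and 6.36 with LPS. The ERRα-/- cells gave 2.48, 0.25 and 0.15 with PBS and 4.40, 3.92 and 3.83 with LPS. The order of the groups was thus ERRα+/+ LPS, ERRα+/+ PBS, ERRα-/- LPS and ERRα-/- PBS, and the arrays of neighbouring groups did not overlap except that the highest ERRα-/- LPS array (4.40) exceeded the lowest ERRα+/+ PBS array (4.39). Within the ERRα-/- PBS group, replicate 1 stood far above replicates 2 and 3.

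Over PBS and LPS together, the log2 difference of Esrra between ERRα-/- and ERRα+/+ cells was -2.84 ± 0.36 (SE, n = 6 arrays per genotype, adjusted p = 0.0038), which is 13.9% of the ERRα+/+ level. Esrra fell by 3.58 ± 0.51 under PBS (8.36% of the ERRα+/+ level, n = 3 arrays per group, adjusted p = 0.0227). The difference under LPS, -2.11 ± 0.51, missed the threshold (adjusted p = 0.202), although the arrays did not overlap, and within slide 2 it was -2.43 (adjusted p = 0.00104). The PBS call was lost on leaving out ERRα+/+ PBS replicate 2 (adjusted p = 0.105) or 3 (0.0629), without ERRα-/- PBS replicate 2 (0.123) or 3 (0.11), without both of the arrays with noisy repeated spots (0.159) and without any filter on dim probes (0.0655). The LPS difference was called (adjusted p = 0.00441) once ERRα-/- PBS replicate 1 was left out. Since the deleted part is not given, the position of this probe relative to it is not known, and its signal is no test of the genotype if it lies outside.

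The Esrra signal rose with LPS in both genotypes, 3.08-fold in ERRα+/+ cells (log2 1.62 ± 0.51, adjusted p = 0.0232) and 8.54-fold in ERRα-/- cells (3.09 ± 0.51, adjusted p = 0.0007). By replicate the rise was 1.33, 1.86 and 1.67 in ERRα+/+ cells and 1.92, 3.67 and 3.69 in ERRα-/- cells, so the smallest rise was on slide 1 in each. The response was larger in ERRα-/- cells by 1.47 ± 0.72 (95% interval -0.11 to 3.06), which missed the threshold (adjusted p = 1.00) in the fit of all arrays. It was 1.91 (adjusted p = 0.0129) within slide 2 and 2.00 (adjusted p = 0.00677) with array weights, fits that also called more of all genes (last section). The call in ERRα+/+ cells depended on the scaling: quantile normalization gave 1.18 (adjusted p = 0.0923), and the 75th percentile over probes above background on all arrays gave 1.39 (adjusted p = 0.0505). It was also lost without ERRα+/+ PBS replicate 1 or 2 (adjusted p = 0.0505 and 0.0675), without ERRα+/+ LPS replicate 2 or 3 (0.0657 and 0.0727), and without both arrays with noisy repeated spots (0.17). The summed level of the 6 stromal markers was 3.62 to 3.95 in ERRα-/- PBS and 5.34 to 11.9 in ERRα+/+ PBS arrays, with Pdgfra above background on 1 of 12 arrays, and 2.94 to 5.96 and 4.92 to 8.78 in the LPS arrays, which overlapped. Under PBS the macrophage marker sums overlapped between genotypes (1222 to 1657 in ERRα-/- and 894 to 1518 in ERRα+/+ arrays). Those of lymphocyte markers did so too (1.49 to 3.31 and 2.55 to 2.99). The sums of the remaining marker lists did not overlap under PBS. Neutrophil markers summed to 227 to 282 in ERRα-/- and 297 to 432 in ERRα+/+ PBS arrays and mast cell markers to 0.318 to 0.498 and 0.642 to 0.713. Erythroid and megakaryocyte markers summed to 64.7 to 71.0 in ERRα-/- and 74.7 to 119 in ERRα+/+ PBS arrays. Theirs was the only list without overlap under LPS, at 101 to 110 and 143 to 205. Their brightest marker was Pf4 (mean log2 level 6.01 against 6.48 under PBS). Of all single genes tested, 14.2% did not overlap between genotypes under PBS. The dendritic cell sum was higher in ERRα-/- PBS arrays, 227 to 243 against 67.7 to 204, but it is mostly Siglech (mean log2 level 7.86 against 7.00). Flt3 was also higher (-3.01 against -3.17), while Zbtb46 (near background), Ccr7 and Clec9a were lower. Xcr1 was not above background on any array. The median log2 difference of this list under PBS was -0.31. The part of these cells in the Esrra difference was not tested.

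Of the 9 listed genes that passed the filter on dim probes, 3 rose and 1 fell with LPS in each genotype: Esrra, Ppargc1b and Pprc1 rose and Sirt3 fell. Over all genes tested, 45.9% were called for LPS in ERRα+/+ cells and 50.4% in ERRα-/- cells (22.2% higher and 23.7% lower, and 25.1% higher and 25.3% lower), so a count of 4 of 9 is near that background. The PBS and LPS arrays did not overlap for the same 4 genes in each genotype, where 54.0% and 59.6% of all genes did not overlap. With the replicate number as a block, 7 of the 9 were called in each genotype, which adds Nrip1, Nrf1 and Gabpa in ERRα+/+ cells and Sirt1, Nrf1 and Gabpa in ERRα-/- cells. That fit also called more of the 13113 genes tested, 7936 in ERRα+/+ and 8348 in ERRα-/- cells. The median response was 0.40 over the 9 genes in ERRα+/+ cells and 0.48 in ERRα-/- cells, beside 0.02 and 0.05 over all genes tested. Quantile normalization moved the all-gene medians to -0.14 and -0.15, and scaling to probes above background on all arrays moved both to -0.21 and the split of all calls to 2213 higher and 4088 lower in ERRα+/+ and 2356 higher and 4332 lower in ERRα-/- cells.

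**Figure D2:**
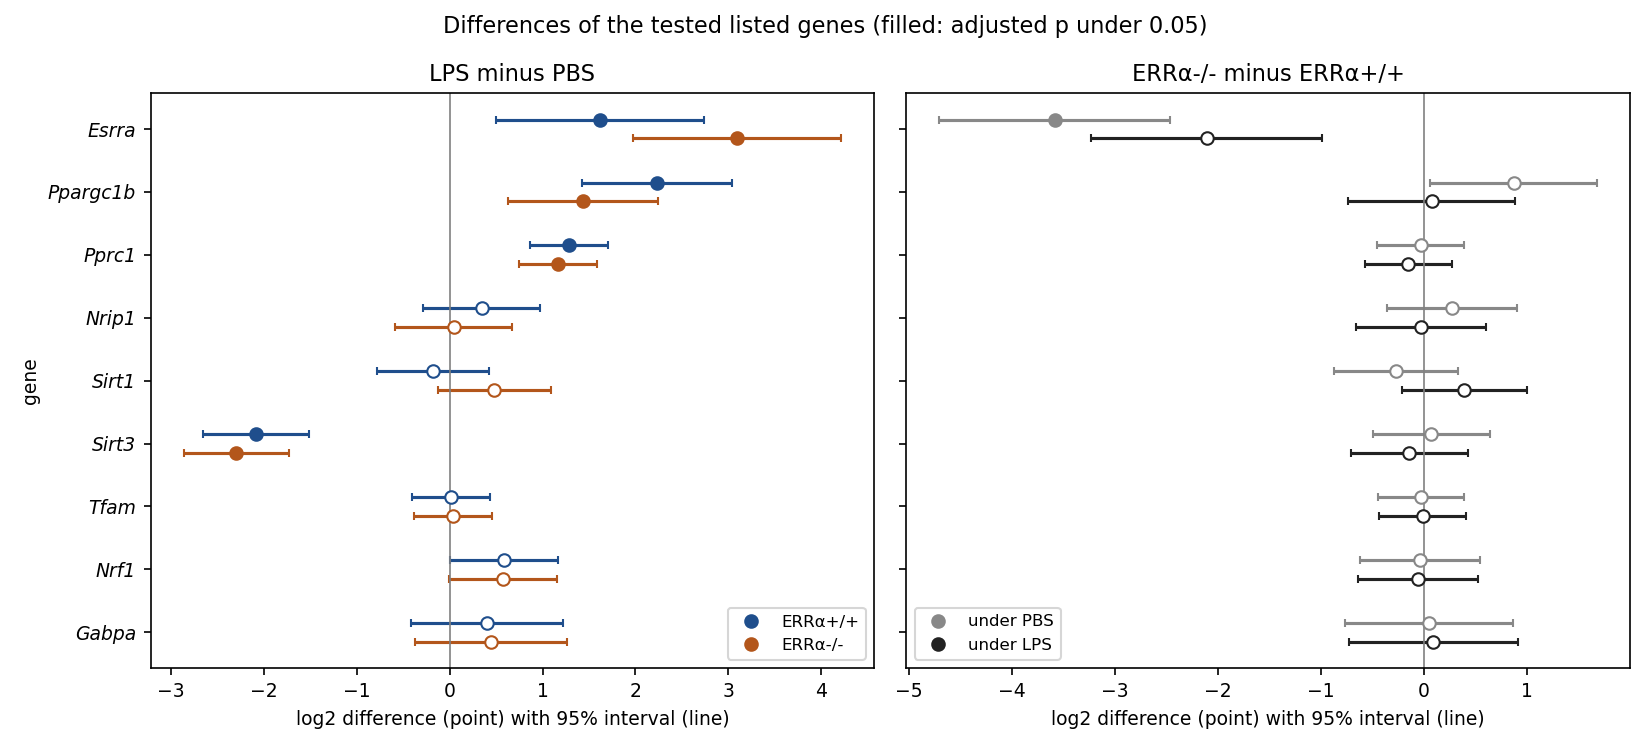
Log2 difference and 95% interval of the 9 tested genes, LPS minus PBS in each genotype (left) and ERRα-/- minus ERRα+/+ under each treatment (right); filled points passed an adjusted p under 0.05 in limma with 3 arrays per group. On the left 4 genes are filled in both genotypes, and on the right the only filled point is Esrra under PBS at -3.58.

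Ppargc1a, the best studied coactivator of ERRα, gave no measurable level. Its 2 probes were not well above background on any of the 12 arrays, with signals of 3.26 to 31.8 for the brighter probe and 2.53 to 7.98 for the other. The lowest signal of any probe well above background was 11.9 to 34.7, depending on the array. Ppargc1a was therefore not tested and has no fold change.

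Ppargc1b, which encodes PGC-1β, had the larger LPS response of the 2 measured PGC-1 family members. It read -1.95, -2.97 and -3.75 in ERRα+/+ PBS and -0.74, -0.62 and -0.61 in ERRα+/+ LPS. The ERRα-/- arrays read -1.62, -2.15 and -2.29 with PBS and -0.48, -0.68 and -0.58 with LPS. All 6 LPS arrays stood above all 6 PBS arrays, and the spread was wide only with PBS (SD 0.90 in ERRα+/+ and 0.35 in ERRα-/-, against 0.07 and 0.10 with LPS). Ppargc1b rose 4.70-fold in ERRα+/+ cells (log2 2.23 ± 0.36, adjusted p = 0.000775) and 2.71-fold in ERRα-/- cells (1.44 ± 0.36, adjusted p = 0.00777), in 3 of 3 replicates of each. By replicate number the ERRα+/+ rise was 1.21, 2.35 and 3.14, and the ERRα-/- rise 1.13, 1.47 and 1.71. The rises of 2.35 and 3.14 were read against the PBS arrays with noisy repeated spots. In ERRα+/+ replicate 1, which used neither, Pprc1 rose by 0.93. The ERRα+/+ difference of Ppargc1b was 1.29 to 2.83 over all settings.

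Under PBS, Ppargc1b was 0.87 ± 0.36 higher in ERRα-/- than in ERRα+/+ cells, in 3 of 3 replicates (0.33, 0.82 and 1.46), but the arrays overlapped and the difference missed the threshold (adjusted p = 0.662). It passed within slide 2 (1.14, adjusted p = 0.0382) and with array weights (1.23, adjusted p = 0.00333). The 2 lowest arrays, ERRα+/+ PBS replicates 2 and 3, were those with noisy repeated spots, and the difference was 0.33 on slide 1, which holds neither. Without both it was -0.07 (adjusted p = 0.967). Leaving out 1 array gave 0.44 (without ERRα+/+ PBS replicate 3) to 1.34 (without ERRα+/+ PBS replicate 1), none of them called. Under LPS the genotypes differed by 0.07 (95% interval -0.73 to 0.88). The LPS response differed between genotypes by -0.79 ± 0.52 (adjusted p = 1.00), by -1.25 with array weights (adjusted p = 0.017) and by 0.14 without both noisy arrays (adjusted p = 0.999).

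Pprc1, whose product PRC is a serum-induced member of the same family, rose by a similar amount in both genotypes. It read -1.05, -1.02 and -1.21 in ERRα+/+ PBS and -0.12, 0.25 and 0.44 in ERRα+/+ LPS. In ERRα-/- cells it read -1.12, -1.32 and -0.94 with PBS and -0.22, 0.05 and 0.27 with LPS. Every LPS array stood above every PBS array. The rise was 2.43-fold in ERRα+/+ cells (log2 1.28 ± 0.19, adjusted p = 0.000438) and 2.24-fold in ERRα-/- cells (1.16 ± 0.19, adjusted p = 0.0007), and the 2 responses differed by -0.12 (95% interval -0.72 to 0.48).

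Nrip1, which encodes the corepressor RIP140, varied between slides more than between groups. Its level was 1.03, 1.67 and 1.52 in ERRα+/+ PBS and 1.47, 1.96 and 1.83 in ERRα+/+ LPS. The ERRα-/- cells gave 1.16, 1.98 and 1.91 with PBS and 1.27, 1.93 and 1.97 with LPS. Slide 2 stood 0.62 above slide 1 on average, in 4 of 4 groups, and the groups overlapped. The LPS difference was 0.34 ± 0.29 in ERRα+/+ cells (adjusted p = 0.347), with every replicate higher (0.44, 0.28 and 0.31), and 0.04 ± 0.29 in ERRα-/- cells (adjusted p = 0.912). With the replicate number as a block the ERRα+/+ difference was called (adjusted p = 0.0246).

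Sirt3, the main deacetylase of the mitochondrial matrix, was the listed gene that fell. It read 2.30, 2.56 and 2.31 in ERRα+/+ PBS and 0.78, 0.10 and 0.04 in ERRα+/+ LPS. It read 2.32, 2.46 and 2.61 in ERRα-/- PBS and 0.69, -0.03 and -0.16 in ERRα-/- LPS. The PBS arrays lay within 2.30 to 2.61 and the LPS arrays within -0.16 to 0.78, with the 2 arrays of slide 1 the highest of the latter. Sirt3 fell 4.24-fold in ERRα+/+ cells (log2 -2.09 ± 0.26, adjusted p = 0.00014) and 4.91-fold in ERRα-/- cells (-2.30 ± 0.26, adjusted p = 8.05e-05). Genotypes differed by 0.07 under PBS (95% interval -0.50 to 0.64) and by -0.14 under LPS (-0.71 to 0.43).

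Sirt1, the nuclear deacetylase of PGC-1α whose window carries both E-boxes printed above, did not pass the test in any comparison when all 12 arrays were fitted with equal weights and no block. It read 2.01, 2.35 and 2.28 in ERRα+/+ PBS and 1.63, 2.24 and 2.22 in ERRα+/+ LPS. In ERRα-/- cells it read 1.57, 2.15 and 2.1 with PBS and 1.86, 2.69 and 2.72 with LPS. The arrays overlapped between treatments in each genotype and between genotypes under each treatment. By replicate number, which is not known to pair the samples, LPS minus PBS was -0.38, -0.11 and -0.06 in ERRα+/+ cells but 0.29, 0.54 and 0.61 in ERRα-/- cells. The difference between these responses was 0.67, 0.66 and 0.67 in replicates 1 to 3, with a mean of 0.67 ± 0.39 (adjusted p = 1.00). With the replicate number as a block its standard error was 0.17 and its adjusted p 0.699, and within slide 2 it was 0.66 (adjusted p = 0.0299). The LPS difference in ERRα-/- cells, 0.48 ± 0.27 (adjusted p = 0.167), was called with the replicate block (adjusted p = 0.00871), within slide 2 (0.58, adjusted p = 0.000377), with array weights (0.58, adjusted p = 5.15e-05) and on leaving out ERRα-/- LPS replicate 1 (0.76, adjusted p = 0.0231). With array weights the difference between the responses was also called (0.64, adjusted p = 0.0214). For this comparison the fits within slide 2 and with array weights also called more of all genes, as counted in the last section.

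Tfam, Nrf1 and Gabpa were each read by probes of different brightness, and these gave different LPS responses. The brightest Tfam probe read 1.85, 2.11 and 2.22 in ERRα+/+ PBS and 1.79, 2.22 and 2.22 in ERRα+/+ LPS. It read 1.71, 2.25 and 2.13 in ERRα-/- PBS and 1.94, 2.16 and 2.09 in ERRα-/- LPS. The groups overlapped, and the LPS differences were 0.01 (95% interval -0.41 to 0.44) and 0.03 (-0.39 to 0.45) in ERRα+/+ and ERRα-/- cells. A second probe gave 0.16 and 0.00. The third Tfam probe, dim at a signal of 22.8 to 90.7, rose with LPS: the difference was 0.95 ± 0.24 in ERRα+/+ cells (adjusted p = 0.0082 over 17118 probes) and 0.80 ± 0.24 in ERRα-/- cells (adjusted p = 0.0166).

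Nrf1 encodes nuclear respiratory factor 1, which is distinct from the antioxidant factor NRF2. Its brightest probe read 2.02, 2.41 and 1.82 in ERRα+/+ PBS and 2.22, 2.90 and 2.87 in ERRα+/+ LPS. It read 1.78, 2.18 and 2.16 in ERRα-/- PBS and 2.16, 2.91 and 2.75 in ERRα-/- LPS. LPS was higher than PBS in 3 of 3 replicates of each genotype, by 0.58 ± 0.26 (adjusted p = 0.0931) and 0.57 ± 0.26 (adjusted p = 0.0946), although groups overlapped. Both differences were called with the replicate block (adjusted p = 0.016 and 0.0163), and the other 2 probes rose by 1.02 and 0.82 in ERRα+/+ cells and by 0.78 and 0.85 in ERRα-/- cells (adjusted p = 0.0031 to 0.0113). The mean of the 3 probes rose by 0.81 (adjusted p = 0.00161) and 0.73 (adjusted p = 0.00251).

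Gabpa, the DNA-binding subunit of GABP, had its brighter probe at 0.70, 1.30 and 1.43 in ERRα+/+ PBS and 1.03, 1.90 and 1.69 in ERRα+/+ LPS. The same probe read 0.49, 1.56 and 1.52 in ERRα-/- PBS and 1.06, 1.96 and 1.88 in ERRα-/- LPS. Slide 2 stood 0.84 above slide 1, the widest gap between slides of the 9 genes, and the groups overlapped. The LPS differences of 0.40 ± 0.37 and 0.44 ± 0.37 missed the threshold (adjusted p = 0.401 and 0.343) and were called with the replicate block (adjusted p = 0.018 and 0.0104). The dimmer probe rose in both genotypes, with LPS differences of 1.11 ± 0.32 in ERRα+/+ cells (adjusted p = 0.017) and 1.12 ± 0.32 in ERRα-/- cells (adjusted p = 0.015).

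**Figure D3:**
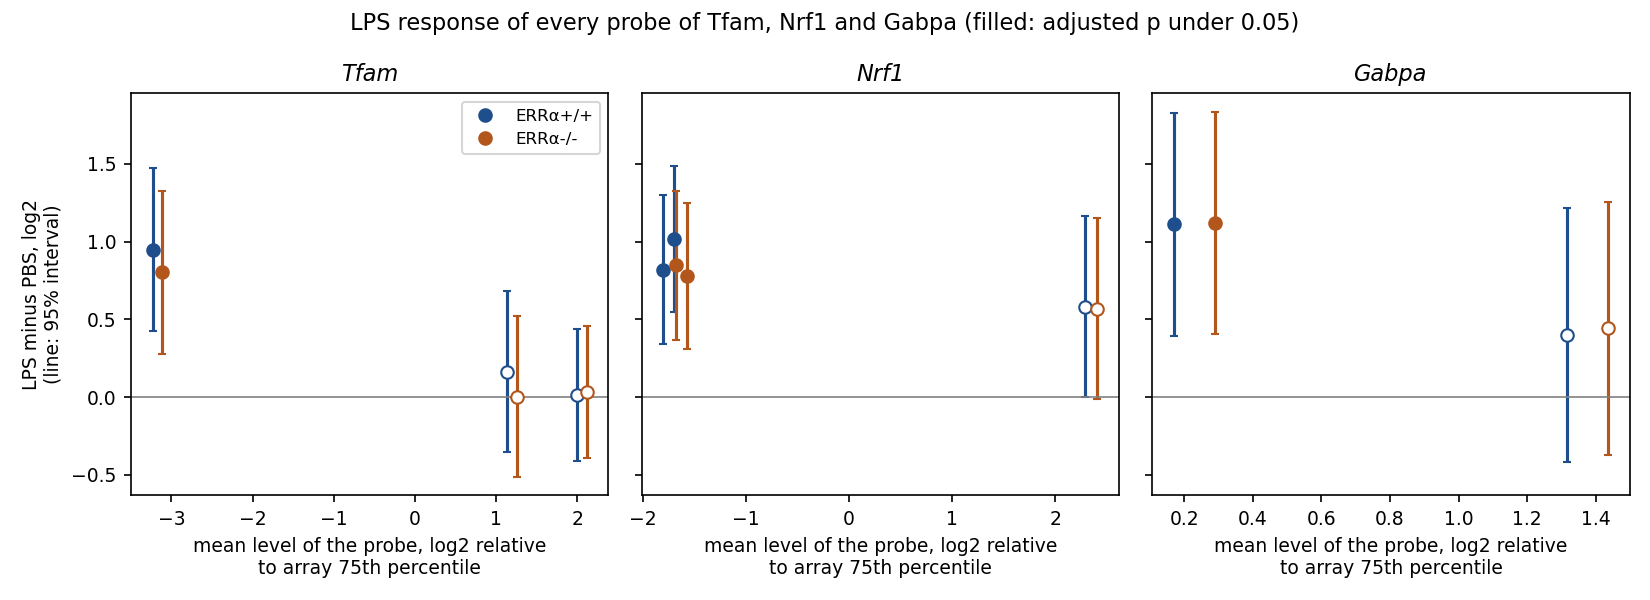
LPS response (log2 LPS minus PBS, with its 95% interval) of each probe of Tfam, Nrf1 and Gabpa against the probe's mean level (log2 units from the 75th percentile of each array, genotypes set slightly apart sideways); filled points passed an adjusted p under 0.05 over 17118 probes. In each gene the dimmest probe has a larger response than the brightest, up to 1.12 for Gabpa, and the brightest probe is unfilled.

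Between genotypes, Esrra was the only listed gene called when all arrays were fitted with equal weights and no block. Sirt1 under LPS was called within slide 2 (0.47, adjusted p = 0.0104) and with array weights (0.46, adjusted p = 0.00406), and Ppargc1b in the fits given above and, averaged over treatments, with array weights (0.60, adjusted p = 0.00693). Within slide 2 and with array weights, 2218 and 4016 of all 13113 genes were called under LPS and 1247 and 1547 under PBS. With equal weights and no block these numbers were 17 under LPS and 56 under PBS. Esrra was 1 of 9 under PBS and 1 of 9 averaged over treatments, both lower, where 0.427% and 1.37% of all genes tested were called (0.358% and 0.969% lower). Under LPS limma called 0 of 9, against 0.130% of all genes at an adjusted p under 0.05. At an unadjusted p under 0.05 the numbers were 1 of 9 (Esrra) and 817 of 13113. The other 8 genes differed by -0.27 to 0.87 under PBS and by -0.15 to 0.39 under LPS. For the comparison of LPS responses between genotypes 0 of 9 and 0.00% of all genes were called, with 0 of 9 and 292 of 13113 at an unadjusted p under 0.05. All 8 called LPS responses of listed genes, 4 per genotype, were smallest in replicate 1, the only replicate on slide 1. The share of all called genes with this order was not computed, so it is not shown to be particular to these genes.

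Profiles over the 12 arrays gave the genes most like Esrra and Ppargc1b in level. Those most like Esrra were Muc13 (Pearson's r = 0.948), Col4a2 (0.947), Tuba1c (0.944), Prkcq (0.943) and Samd14 (0.942). For Ppargc1b they were Tmem248 (0.984), Actl6a (0.984), Tm9sf4 (0.975), Cdc25a (0.975) and Ap5b1 (0.973). These correlations describe 12 arrays that share 4 group means and 2 slides. Samd14, like Esrra, had its lowest group mean in ERRα-/- PBS (-1.83) and its highest in ERRα+/+ LPS (-0.34), whereas the mean of Tmem248 was 2.27 and 2.43 with PBS and 2.89 and 2.87 with LPS in ERRα+/+ and ERRα-/- cells.

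Of the 94 tested genes of 7 further lists of the pathway, 38 were called for LPS in ERRα+/+ cells and 47 in ERRα-/- cells, against 45.9% and 50.4% of all genes. With the replicate block 60 and 61 of the 94 were called, beside 7936 and 8348 of all 13113 genes tested. The fit of all arrays with equal weights and no block called 0 of the 94 in a comparison of genotypes. Of 17 ERR family members and cofactors 13 were tested; in ERRα+/+ cells 2 rose and 2 fell, and in ERRα-/- cells 2 rose and 4 fell (2 and 3, and 3 and 4, with the replicate block). Lpin1, a phosphatidate phosphatase that also coactivates with PGC-1α, fell by 5.58 ± 0.78 in ERRα+/+ cells (adjusted p = 0.000304), where its probe was above background on 1 of 3 LPS arrays. In ERRα-/- cells it was not well above background on any LPS array, and Lpin1 was at least 16.1-fold lower than with PBS (adjusted p = 0.000278; measured means -0.10 with PBS and -5.70 with LPS). That bound sets each LPS array at the lowest level of any of its probes well above background. The coactivator gene Ncoa3 fell by 1.5 and 1.19, and the Mediator subunit gene Med1 rose by 0.95 and 0.96. The Ncoa3 call in ERRα-/- cells ended without ERRα-/- PBS replicate 2 or 3 (adjusted p = 0.0509 and 0.0561). The acetyltransferase gene Kat2b rose by 1.03 and 1.38, the former call ending without ERRα+/+ PBS replicate 1 or 3 or LPS replicate 2 or 3 (adjusted p = 0.0811 to 0.128). The Kat2b call in ERRα+/+ cells also ended when scaled to probes above background on all arrays (adjusted p = 0.0567). The list median was -0.17 in ERRα+/+ and -0.26 in ERRα-/- cells, and the ERRα+/+ split was 1 higher and 4 lower when scaled to probes above background on all arrays.

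Of 17 ERRα target genes 16 were tested, and 6 rose and 2 fell in ERRα+/+ cells, while 6 rose and 3 fell in ERRα-/- cells (8 and 3, and 7 and 3, with the replicate block). Acadm, an enzyme of β-oxidation, fell by 1.48 ± 0.19 (adjusted p = 0.000186) and 1.59 ± 0.19 (adjusted p = 0.000119), and Cpt1a, which admits fatty acids to mitochondria, fell by 0.92 and 0.93. Cytochrome c (Cycs) rose by 2.00 and 2.34 and the ATP synthase subunit gene Atp5b by 1.08 and 0.67, the latter call ending without any 1 of 5 ERRα-/- arrays (adjusted p = 0.0503 to 0.0797; all but LPS replicate 1). Tnfaip3, whose product A20 restrains NF-kB signalling, rose by 4.31 ± 0.61 and 4.47 ± 0.61, from 3.01 to 7.32 in ERRα+/+ and from 3.16 to 7.63 in ERRα-/- cells. Its genotype difference was 0.15 ± 0.61 under PBS and 0.31 ± 0.61 under LPS (adjusted p = 1.00 and 0.995). The list medians of 0.31 and 0.34 turned to -0.15 and -0.10 with quantile normalization, where 4 rose and 3 fell in ERRα+/+ and 3 rose and 5 fell in ERRα-/- cells.

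Among the 5 other sirtuin genes, all tested, Sirt6, a nuclear chromatin deacetylase, rose and the mitochondrial Sirt4 and Sirt5 fell in both genotypes. Sirt4 fell by 1.36 and 1.48 and Sirt5 by 1.06 and 1.47 in ERRα+/+ and ERRα-/- cells. All 3 mitochondrial sirtuin genes were thus lower with LPS, Sirt3 being added here with its fall already known. Of all genes tested, 23.7% were called lower in ERRα+/+ and 25.3% in ERRα-/- cells. Sirt6 rose by 0.65 and 0.75, and this call ended with scaling to probes above background on all arrays (adjusted p = 0.13 and 0.0816), where 0 rose and 3 fell. In ERRα+/+ cells it also ended without ERRα+/+ PBS replicate 3 (adjusted p = 0.0536). With the replicate block 1 rose and 3 fell in each genotype.

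Of 21 genes of AMPK signalling, NAD supply and other signals to PGC-1, 20 were tested; 4 rose and 4 fell in ERRα+/+ cells, and 5 rose and 6 fell in ERRα-/- cells. With the replicate block 8 rose and 6 fell in ERRα+/+ cells and 7 rose and 6 fell in ERRα-/- cells. Nampt, the rate-limiting enzyme of NAD salvage, rose by 2.85 ± 0.25 (adjusted p = 1.93e-05) and 2.83 ± 0.25 (adjusted p = 2.21e-05). Camkk2, a kinase that activates AMPK, rose by 1.53 and 0.95, and the transcription factor gene Creb1 by 1.6 and 1.62. The AMPK subunit gene Prkag2 fell by 3.14 and 3.23 and the factor gene Foxo3, above background on 2 of 3 LPS arrays of each genotype, by 1.43 and 0.59. The Foxo3 call in ERRα-/- cells ended without any 1 of 8 arrays, the 6 ERRα-/- arrays and ERRα+/+ LPS replicates 2 and 3 (adjusted p = 0.055 to 0.12). The list medians, 0.22 and 0.10, were -0.01 and -0.17 when scaled to probes above background on all arrays.

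Of the 8 genes listed as partners of NRF-1 and GABPα, all tested, 4 rose and 0 fell in each genotype, with medians of 0.63 and 0.67. The list also holds genes of the antioxidant factor NRF2, among them Keap1 and Nfe2l2. Its counts therefore do not describe partners of NRF-1 and GABPα alone. Keap1, which restrains NRF2, rose by 1.33 and 1.45, Gabpb1, the other subunit of GABP, by 0.84 and 1.03, Mafg by 1.1 and 0.82, and Nfe2l2, which encodes NRF2, by 0.93 and 0.93. With quantile normalization 2 of 8 rose in each genotype: the calls of Mafg (adjusted p = 0.0691 and 0.429) and Nfe2l2 (0.0752 and 0.14) ended. When scaled to probes above background on all arrays, 4 rose and 1 fell in ERRα-/- cells, and with the replicate block 5 rose and 1 fell in each genotype.

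The 18 genes of mitochondrial DNA transcription and replication were all tested, with 2 higher and 4 lower in ERRα+/+ cells and 0 higher and 6 lower in ERRα-/- cells, and medians of -0.28 and -0.43. Polg2, the accessory subunit of the mitochondrial DNA polymerase, fell by 2.74 ± 0.37 (adjusted p = 0.000249) and 2.82 ± 0.37 (adjusted p = 0.000202). The primase-polymerase gene Primpol fell by 1.68 and 1.33, the exonuclease gene Mgme1 by 1.05 and 1.12, and the helicase gene Twnk, above background on 2 of 3 LPS arrays of each genotype, by 1.22 and 1.24. The Twnk call in ERRα+/+ cells ended without ERRα+/+ PBS replicate 1 or 3 or LPS replicate 2 or 3 (adjusted p = 0.0765 to 0.125), and that in ERRα-/- cells without ERRα-/- PBS replicate 1 or 2 or LPS replicate 2 or 3 (0.0614 to 0.0945). The Mgme1 call in ERRα+/+ cells ended without ERRα+/+ PBS replicate 2 (adjusted p = 0.0504). Mterf3 rose by 1.04 in ERRα+/+ cells, called in 9 of 12 fits with 1 array left out (not without ERRα+/+ PBS replicate 2 or LPS replicate 2 or 3, adjusted p = 0.0884 to 0.0998), and differed by 0.49 in ERRα-/- cells. The split in ERRα+/+ cells was 1 higher and 6 lower with quantile normalization. With the replicate block 4 rose and 7 fell in ERRα+/+ cells and 1 rose and 9 fell in ERRα-/- cells.

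Of 14 genes of mitochondrial dynamics and mitophagy, all tested, 2 rose and 3 fell in ERRα+/+ cells and 5 rose and 3 fell in ERRα-/- cells. Pink1, the kinase that marks damaged mitochondria, fell by 0.97 ± 0.18 (adjusted p = 0.00144) and 1.55 ± 0.18 (adjusted p = 8.79e-05). The mitophagy receptor genes Bnip3l and Fundc1 fell by 1.28 and 1.20 and by 0.69 and 0.69, while Bnip3 rose by 1.36 and 0.87. The Bnip3 call in ERRα-/- cells ended without ERRα-/- PBS replicate 1 or 3 or LPS replicate 2 or 3 (adjusted p = 0.0545 to 0.118). Mief1, a receptor of the fission machinery, rose by 0.59 in ERRα-/- cells and differed by 0.33 in ERRα+/+ cells. Scaling to probes above background on all arrays ended the Mief1 call (adjusted p = 0.082), as did leaving out ERRα-/- LPS replicate 2 or 3 (0.0674 and 0.0575). The Fundc1 call in ERRα+/+ cells ended without ERRα+/+ PBS replicate 3 or any 1 LPS replicate (adjusted p = 0.0599 to 0.118), and that in ERRα-/- cells without any 1 of 5 ERRα-/- arrays (0.0541 to 0.109; all but PBS replicate 1). With the replicate block 6 rose and 3 fell in ERRα+/+ cells and 8 rose and 3 fell in ERRα-/- cells. With quantile normalization 1 rose and 3 fell in ERRα+/+ cells and 2 rose and 3 fell in ERRα-/- cells.

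**Figure D4:**
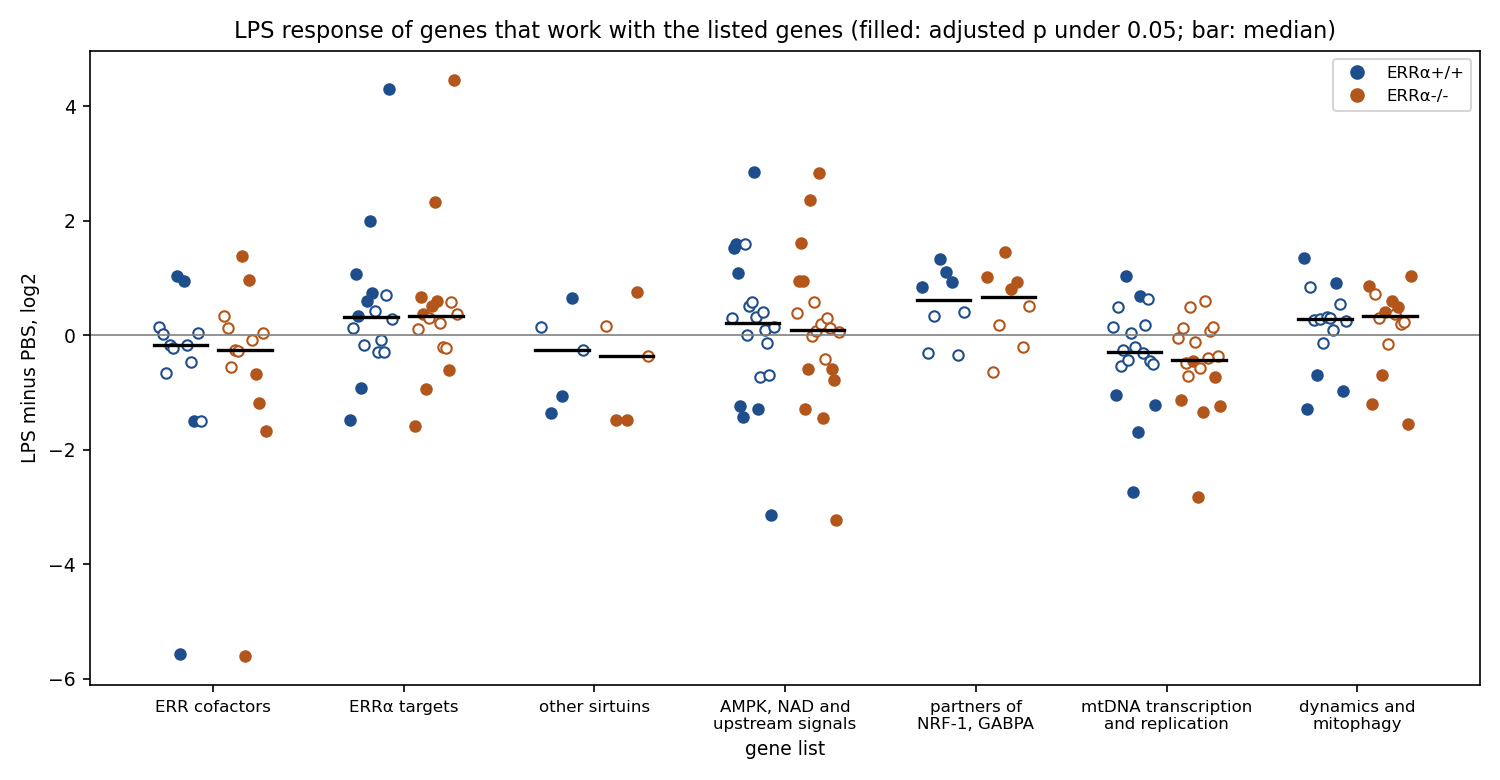
LPS response (log2 LPS minus PBS) of every tested gene of the 7 lists, by genotype; filled points passed an adjusted p under 0.05 in limma, and bars are list medians. Lpin1 lies lowest at -5.58 and -5.60 (the latter with no LPS array well above background) and Tnfaip3 highest at 4.31 and 4.47. The list named partners of NRF-1 and GABPα, which also holds genes of NRF2, is the one with 0 filled points below 0 in both genotypes.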

How the data were processed

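The 12 arrays were grouped by the genotype and treatment in the sample labels. The authors' deposited intensity values are Agilent's processed signal, background-subtracted and detrended within an array and not normalized between arrays, per the file headers. These headers give Feature Extraction 11.5.1.1, and version 9.3.2.1 stands in the submitters' processing notes. The deposited flags of 0 or 1 per spot, per the file headers, mark non-uniform spots, saturated spots and spots well above background. The series-wide table of intensity values that the authors deposited was identical to this signal for each of 62976 spots.

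Control and non-uniform spots were left out (a probe with only non-uniform spots on an array kept their mean), spots of a probe were averaged, and the array's 75th percentile was subtracted on the log2 scale. Probes were named by accession through RefSeq tables (GRCm38.p6); 27509 probes named 20887 genes. Probes had to be well above background on every array of 1 or more groups, and the brightest such probe stood for its gene (13113 genes). A dimmer probe saw the same samples as the brighter one, so probes are not replicates. Precision is limited by the number of arrays.

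Tests used limma 3.58.1 (R 4.3.3; 1 mean per group, all arrays, Benjamini-Hochberg over all genes, called at an adjusted p under 0.05), and the script was tested on simulated data. SE is the model's standard error. Titles number replicates 2 and 3, and the unnumbered title was taken as 1. Deviations from group means of arrays with the same replicate number correlated above 0.1 in 18 of 18 pairs of groups and numbers (0.143 to 0.783). The same held for replicates 2 and 3 (12 of 12). A shift between slides alone could give such correlations, and arrays of different numbers were not compared. Whether the numbers pair the samples is therefore not settled. The replicate block is given where it changes a listed gene's call or a list's counts. Alternatives were other background correction, scaling, filters, probe summaries, blocks, weights and left-out arrays; testing each probe apart and leaving out both noisy arrays were chosen after seeing the data.

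Named were all listed genes, up to 4 called genes per list and comparison with the smallest adjusted p, with their values in the other genotype, the 5 genes most correlated with Esrra or Ppargc1b, and Tnfaip3. Members, lists and rules were chosen with earlier results of these data known. Motifs were chosen after seeing the data. Some genes that this rule names are not reported here.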

Additional observations from a re-analysis of the deposited data

Results flagged for a closer look

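For Sirt1, the LPS response of ERRα-/- cells exceeded that of ERRα+/+ cells by a log2 difference of 0.67 ± 0.39. Compared by replicate number, all 3 replicates of ERRα+/+ cells were lower with LPS (-0.38, -0.11 and -0.06) and all 3 of ERRα-/- cells were higher (0.29, 0.54 and 0.61). The numbers are not known to pair the samples, and the PBS and LPS arrays overlapped in each genotype. The interaction term, fitted with limma across all genes, did not call this difference (adjusted p = 1.00).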

How the results depend on the processing

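Of 732 values of single listed genes under alternatives other than leaving out 1 array, 681 kept their direction or stayed uncalled on the same side of the threshold, 5 lost and 46 gained a call and 0 called values reversed; 43 uncalled values changed sign. The 732 values include fits of the deposited value table, identical to the scanner signal, and of each gene's main probe as its own row. Part of this agreement was therefore fixed in advance. In each of the 6 comparisons over all genes, array weights gave the most calls, and the cause was not tested. With LPS, 4 listed genes were called in each genotype, and 7 with the replicate block, the slide as a block, within slide 2 or with array weights; leaving out 1 array gave 3 to 5 in ERRα+/+ and 4 to 6 in ERRα-/- cells. Of all genes, 6018 were called for LPS in ERRα+/+ cells (within slide 2, 9479; array weights, 9630; without both noisy arrays, 2891) and 6611 in ERRα-/- cells (array weights, 10770). Under PBS the genotype called 1 listed gene (no filter, 0; within slide 2, 2; array weights, 2; without both noisy arrays, 0; leaving out 1 array, 0 to 1) and 56 of all genes. The latter number was 5 without a filter, 278 with the slide as a block, 1247 within slide 2, 193 with the replicate block, 1547 with array weights, 31 without both noisy arrays and 3 to 81 leaving out 1 array. Under LPS it called 0 listed genes (2 within slide 2, 2 with array weights, 0 to 1 leaving out 1 array) and 17 of all genes: 6 without a filter, 211 with the slide as a block, 2218 within slide 2, 132 with the replicate block, 4016 with array weights and 3 to 45 leaving out 1 array. Averaged over treatments it called 1 listed gene (2 with array weights) and 179 of all genes: 114 with normexp, 92 without a filter, 648 with the slide as a block, 2673 within slide 2, 498 with the replicate block, 3702 with array weights, 115 without both noisy arrays and 84 to 262 leaving out 1 array. The interaction of genotype and LPS called 0 listed genes (2 within slide 2, 3 with array weights) and 0 of all genes (1 with normexp, 545 within slide 2, 1229 with array weights, 8 without both noisy arrays). The genotype calls under PBS were 9 higher and 47 lower, and 12 higher and 26 lower with normexp. Those under LPS were 10 higher and 7 lower, and 11 higher and 13 lower when scaled to probes above background on all arrays. The replicate block changed no call of a listed gene beyond those given in the report. The deposited value table gave the same numbers of calls as the scanner files. Signal near background limits Ppargc1a and the dim Tfam probe.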
